A study of Mus musculus with 7 samples.

Results

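The enzymes described here attach a water-soluble group to drugs, dietary compounds, bilirubin, bile acids and steroids. Glutathione S-transferases (GST, counted here with the membrane-bound MGST enzymes) join the cysteine-containing tripeptide glutathione to reactive compounds, UDP-glucuronosyltransferases (UGT) transfer glucuronic acid from UDP-glucuronic acid, and sulfotransferases (SULT) transfer sulfate from the donor PAPS. Of these donors, glutathione holds cysteine, and PAPS holds sulfate, which cells can make from cysteine. In the gut they act on compounds taken up from food before these reach the liver, and several of their genes are known targets of nuclear receptors, HNF and CDX factors, the dioxin receptor AHR and the stress-responsive factor NRF2.

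The members were all genes of the deposited count table whose symbol starts with Gsta, Gstk, Gstm, Gsto, Gstp, Gstt, Gstz, Mgst, Ugt or Sult followed by a digit. They numbered 63 of the 38293 genes listed, with 24 GST and MGST genes, 21 UGT genes and 18 SULT genes. The libraries were made from polyA RNA of the small intestine of male C57BL/6NRJ mice, which were 8 weeks old at the start and, per the methods of the study, gave scrapings of the ileum that hold epithelium and lamina propria but no muscle layer. All mice ate a high fat, low calcium AIN93G diet, with 1 week on the control diet for every mouse followed by 2 weeks on either the diet with normal cystine (normal cys) or that diet with the added L-cystine replaced by alanine (low cys). The normal cys libraries were X17SI4, X32SI4, SI9 and X1SI4 (replicates 1 to 4), and the low cys libraries were X23SI4, X26SI4 and X10SI4 (replicates 1 to 3), so that n was 4 and 3 throughout. The methods describe tissue kept per mouse, and the labels name each library but no mouse, so the p-values below measure the spread between these libraries. Libraries of 1 diet differed beyond counting noise, with a chi-square per degree of freedom of at least 22.4 for every pair.

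Total counts per library lay between 14888760 and 22412703, and the 2 shallowest libraries (X26SI4 and X10SI4) were both low cys. Markers of the distal ileum were abundant, with a summed 7079 to 13250 CPM (counts scaled to a common library size) over the 8 genes of that list. The list for the proximal small intestine summed to 1159 to 2862 CPM over 7 genes. Cubn alone held 815.5 to 2077 CPM and was most of that sum in every library, so the sum is no measure of proximal tissue. Other genes of that list varied widely between libraries, with Lct at 89.6 to 896.8 CPM and Gata4 at 5.78 to 38.6 CPM. Of 8 pancreatic acinar genes, Prss1, Prss2, Pnlip and Cela3b had no count in any library. Cpa1, Amy2a5 and Ctrb1 had counts in some libraries, and Cela1 was at 3.47 to 5.31 CPM. Across all 14869 genes that passed the filter on low counts, edgeR called 0 genes at an adjusted p under 0.05 and 817 at an unadjusted p under 0.05, and DESeq2 called 16 at an adjusted p under 0.05.

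Of the 63 members, 15 had no count in any library, 11 had at most 8 counts in a library and were not tested, and 37 were tested. The tested members were 22 of 24 GST and MGST genes, 10 of 21 UGT genes and 5 of 18 SULT genes. The 11 SULT genes without a count were Sult1c1, Sult1e1 (an estrogen sulfotransferase), Sult3a1, Sult6b1 and all 7 of the Sult2a genes, which sulfate hydroxysteroids and bile acids. Ugt1a5, Ugt1a8, Ugt1a10 and Ugt3a1 were the UGT genes without a count. Among the untested members, Gsto2 had 1 to 8 counts and Sult4a1, best known from brain, had 0 to 7 counts per library.

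Gene levels are compared as CPM per kilobase of exon, using the exon length of the table. By that measure the pi-class transferase Gstp1 (chr19:4035411-4037912, minus strand) was the highest member, at a level of 329.1 CPM per kb over the 7 libraries, above 98.7% of all genes tested. Its neighbour Gstp2 followed with 263.4 CPM per kb, and Gstp1 was the higher of the pair in 7 of 7 libraries. Mgst3, a microsomal enzyme with glutathione peroxidase activity, stood at 173.9 CPM per kb and Gsto1, an omega-class enzyme that reduces dehydroascorbate, at 152.8 CPM per kb, in that order in 6 of 7 libraries with overlapping ranges. Mgst1 came next at 104.4 CPM per kb and was below Gsto1 in 7 of 7 libraries.

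**Figure D1:**
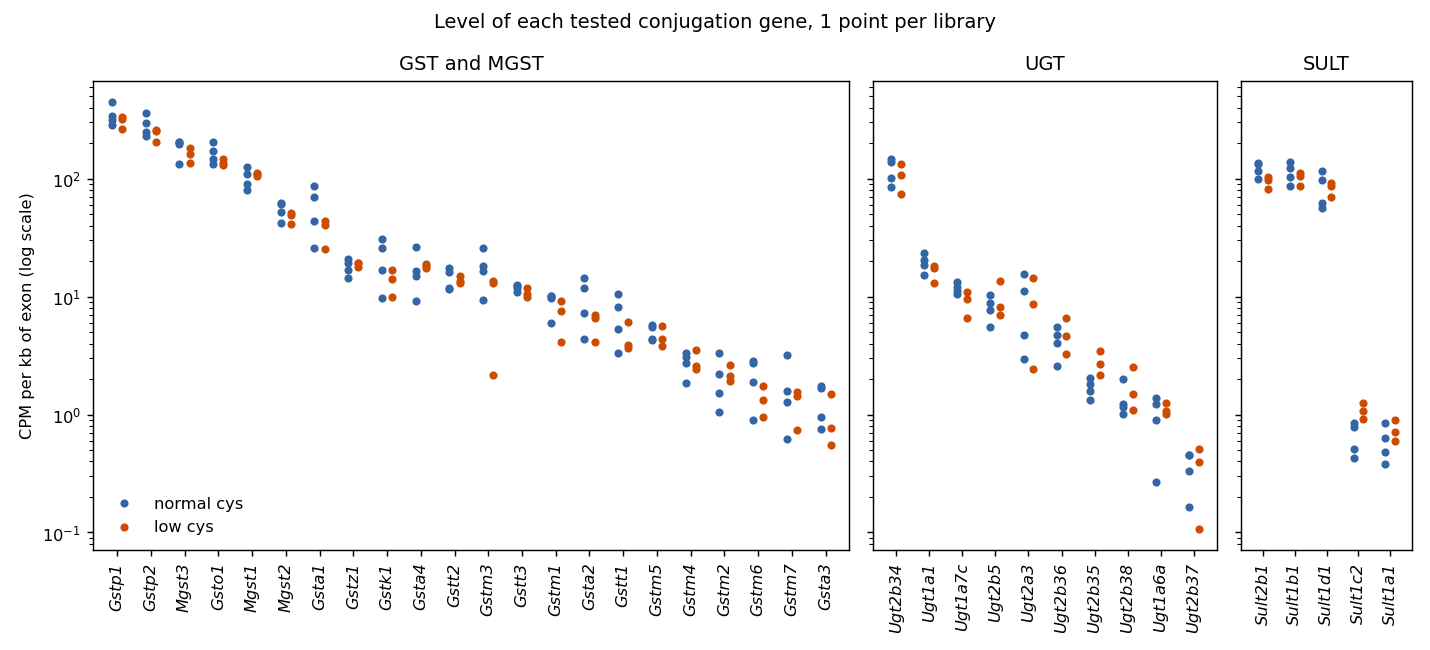
CPM per kb of exon (log scale) of the 37 tested genes in each library, with normal cys in blue and low cys in orange, ordered by level within each family. Gstp1 led the GST family at 329.1 CPM per kb, a single gene (Ugt2b34) stood above the other UGT genes, and 3 of the 5 SULT genes lay between 83.1 and 109.7 CPM per kb while the other two lay under 1.

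Among the UGT genes Ugt2b34 (chr5:86889767-86906937, minus strand) reached 112.5 CPM per kb and lay above Ugt1a1, the bilirubin-conjugating enzyme, in 7 of 7 libraries without overlap of their ranges. Ugt1a1 stood at 18.1, Ugt1a7c at 10.6, Ugt2b5 at 8.73 and Ugt2a3 at 8.54 CPM per kb. Ugt1a1 was above Ugt1a7c in 7 of 7 libraries by full exon length, but in X17SI4 its CPM was the lower (33.6 against 35.8). The order below them was less firm as well, since Ugt1a7c was above Ugt2b5 in 5 of 7 libraries and Ugt2b5 above Ugt2a3 in 4 of 7. Among the SULT genes Sult2b1, which sulfates cholesterol and other hydroxysteroids, and Sult1b1, which acts on phenols and thyroid hormones, did not differ beyond their spread, at 109.7 and 107.4 CPM per kb with Sult2b1 the higher in 2 of 7 libraries. Sult1d1, a sulfotransferase for catecholamines, was below Sult1b1 in 7 of 7 libraries at 83.1 CPM per kb, and Sult1c2 and the phenol sulfotransferase Sult1a1 followed at 0.829 and 0.648 CPM per kb. In all, 8 of the 37 tested members (21.6%) exceeded 100 CPM per kb, against 5.06% of all genes tested, and the median level was 10.6 CPM per kb against 4.93 for all genes tested.

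The counts of each family were held by few genes. Sult1b1, Sult2b1 and Sult1d1 took on average 41.9%, 29.3% and 28.4% of the SULT counts. Ugt2b34 alone took 78.5% of the UGT counts, with 75.7% to 81.0% in single libraries, followed by Ugt1a1 with 6.60% and Ugt1a7c with 5.68%. The GST counts were spread over 6 genes that together took 85.2%, namely Gsto1 (19.7%), Gstp1 (16.1%), Mgst1 (13.9%), Mgst3 (12.4%), Mgst2 (12.2%) and Gstp2 (10.9%).

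Several members are near copies of their neighbours, which bears on how far single-gene values can be read. Of the 50-base stretches (1 read length) in the transcripts of Gsta1, 90.5% also occur in transcripts of another gene, and the shares were 54.3% for Gstp2, 49.8% for Gsta2, 41.7% for Ugt2b5, 37.4% for Ugt2b38 and 33.7% for Gstp1. The counts of Gsta1 against Gsta2, and of Gstp1 against Gstp2, are therefore uncertain. Ugt2b34 (1.44%), Ugt2b35 (0.303%), Sult2b1, Sult1b1 and Sult1d1 (0% each) share next to nothing. The Ugt1a locus is a special case, because 9 genes splice their own first exon to the same last exons. Ugt1a1 shares 1311 of its 2224 exon bases with the other Ugt1a genes, and Ugt1a7c shares 2316 of 3233. How reads on such shared exons were treated was not stated in the sources used here. Ugt1a5, Ugt1a8 and Ugt1a10 hold 1311 to 1318 shared bases but had no count, so these reads were not counted for every gene. Over exon bases that belong to 1 gene alone, Ugt1a1 and Ugt1a7c stood at 44.0 and 37.3 CPM per kb, values that assume no read on the shared bases was counted. The opposite-strand gene Gm20528, which overlaps Ugt1a exons, had 7 to 21 counts per library.

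Promoter sequence was at hand for 35 of the 37 tested members. The 250 bases before the RefSeq start sites (GRCm38.p6) are printed for 3 neighbour pairs that the results turn on. Gstp1 (chr19:4037913-4038162, minus strand) and Gstp2 (chr19:4042222-4042471, minus strand), the members with the highest level, were 78.1% identical over these bases. Capitals mark matches to the motifs TGAGTCAGC (an AP-1 site joined to the antioxidant element) and GCGTG (the core bound by the dioxin receptor AHR).
Gstp1: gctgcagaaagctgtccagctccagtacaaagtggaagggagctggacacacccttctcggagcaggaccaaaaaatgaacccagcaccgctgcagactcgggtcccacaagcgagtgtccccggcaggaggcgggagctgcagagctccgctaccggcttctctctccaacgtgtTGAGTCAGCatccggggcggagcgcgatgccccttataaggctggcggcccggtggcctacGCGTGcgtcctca
Gstp2: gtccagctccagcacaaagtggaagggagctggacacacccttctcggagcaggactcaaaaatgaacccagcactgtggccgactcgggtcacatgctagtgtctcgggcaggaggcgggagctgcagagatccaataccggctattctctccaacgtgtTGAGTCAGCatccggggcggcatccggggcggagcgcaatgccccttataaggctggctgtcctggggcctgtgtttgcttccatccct
TGAGTCAGC, a motif added after the sequences had been read, was found on either strand in the windows of these 2 of 35 tested members (5.71%), and in 0.414% of all 32851 RefSeq windows of 300 bases. Because the motif was picked from these 2 similar sequences, the shares cannot be set against each other. Gsta1 (chr9:78230419-78230668, plus strand) and Gsta2 (chr9:78347146-78347395, minus strand), alpha-class enzymes that were highest and lowest in the same libraries, were 70.5% identical. Capitals mark TTTATNG (a CDX2 site) and GCGTG. Gsta1 also had GCGTG, which began at base -2, ran past the start and is therefore not marked, beside base -7 for Gsta2.
Gsta1: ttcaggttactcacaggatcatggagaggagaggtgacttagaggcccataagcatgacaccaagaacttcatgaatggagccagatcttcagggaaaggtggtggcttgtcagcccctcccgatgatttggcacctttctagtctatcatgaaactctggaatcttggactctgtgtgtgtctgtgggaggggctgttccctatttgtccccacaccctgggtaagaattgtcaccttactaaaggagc
Gsta2: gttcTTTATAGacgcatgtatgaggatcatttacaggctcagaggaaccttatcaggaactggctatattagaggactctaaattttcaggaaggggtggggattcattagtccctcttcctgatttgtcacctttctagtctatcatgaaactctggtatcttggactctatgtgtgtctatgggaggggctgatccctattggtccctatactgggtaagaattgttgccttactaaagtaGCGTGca
Ugt2b34 (chr5:86906938-86907187, minus strand) and Ugt2b35 (chr5:87000610-87000859, plus strand) lie in 1 gene cluster and are shown as the most abundant UGT gene and the UGT gene with the smallest p of the diet comparison, and their 250 bases were 48.7% identical, with no match to a motif searched.
Ugt2b34: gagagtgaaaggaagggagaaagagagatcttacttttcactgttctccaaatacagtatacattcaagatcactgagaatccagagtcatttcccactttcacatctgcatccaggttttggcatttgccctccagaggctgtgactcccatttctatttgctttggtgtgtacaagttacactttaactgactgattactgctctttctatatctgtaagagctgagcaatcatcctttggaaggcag
Ugt2b35: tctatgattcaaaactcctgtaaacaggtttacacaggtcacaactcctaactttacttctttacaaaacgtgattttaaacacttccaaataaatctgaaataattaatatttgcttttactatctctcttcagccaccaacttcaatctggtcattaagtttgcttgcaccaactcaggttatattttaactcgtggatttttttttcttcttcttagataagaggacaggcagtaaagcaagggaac
Over all tested members with a window, searched on both strands in 300 bases, the antioxidant response element core TGACNNNGC was present in 4 (11.4%; Gsta3, Gstm5, Gstm7 and Mgst1) against 12.4% of all windows. GCGTG was present in 9 members (25.7%) against 32.4% of all windows, and TTTATNG in 3 (8.57%) against 10.9%. GTTAAT, a partial site of the enterocyte factor HNF1, was present in 6 members (17.1%; Gsta3, Sult1a1, Sult1d1, Ugt1a1, Ugt1a6a and Ugt2a3) against 7.10% of all windows. These counts describe letters in a window, and a gene with more than 1 start site has more than 1 window.

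Low cys was then compared with normal cys. The question was whether conjugation genes respond in the ileum when dietary cystine is restricted. No member passed an adjusted p under 0.05 (0 of 37, against 0% of all genes tested), the smallest adjusted p among members was 0.794 by edgeR and 0.768 by DESeq2, and DESeq2 also called 0 members. At an unadjusted p under 0.05 edgeR called 2 of 37 members (5.41%), Ugt2b35 higher and Sult2b1 lower, against 5.49% of all genes tested (2.66% higher and 2.83% lower). DESeq2 called the same number, 2 of 37, against 6.27% of all genes tested, and limma-voom called 4 of 37 against 6.29%. The low cys libraries lay all above the normal cys libraries for 2 of 37 members (5.41%), Ugt2b35 and Sult1c2, and all below them for 0, against 6.83% of all genes in either direction (3.32% above and 3.51% below). Both shares were thus near the background.

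**Figure D2:**
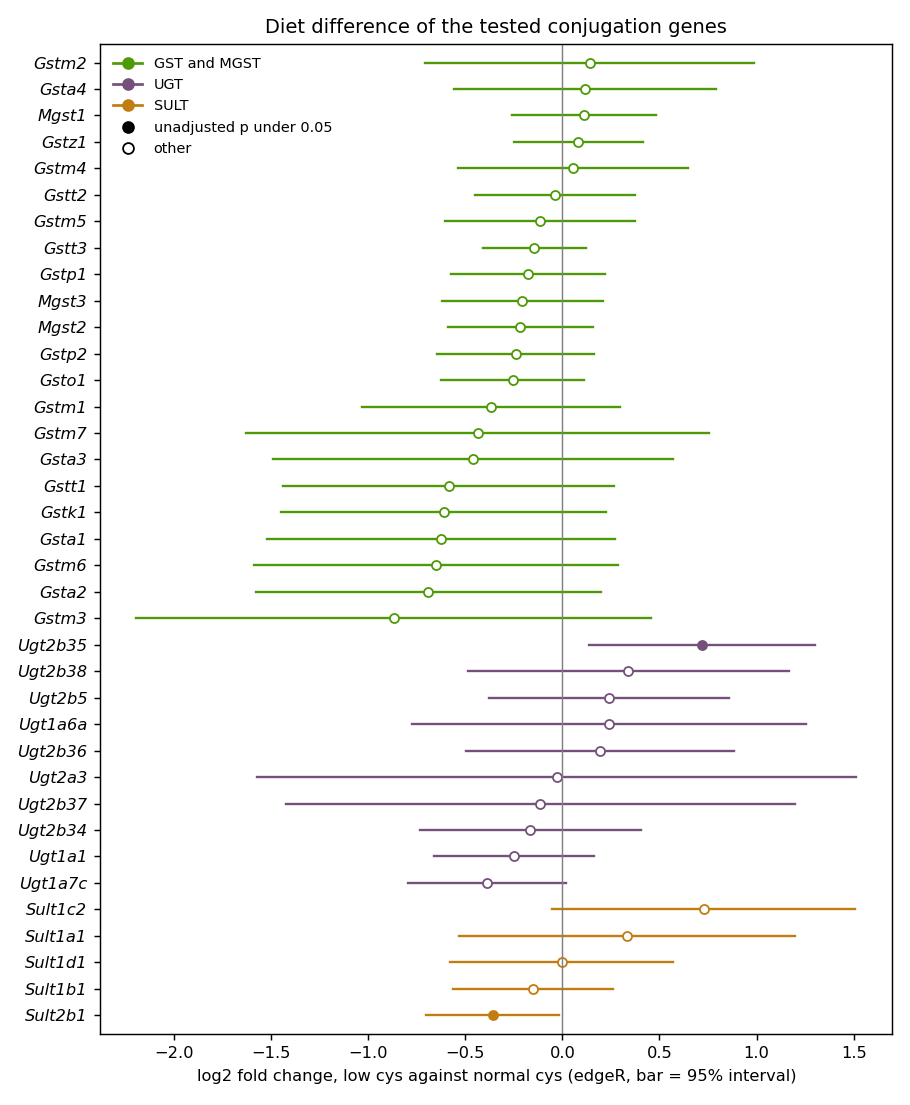
edgeR log2 fold change of low cys against normal cys for the 37 tested genes, grouped by family, with bars for the 95% interval and filled points for an unadjusted p under 0.05. Only the intervals of Ugt2b35 (0.72) and Sult2b1 (-0.36) exclude 0, and 17 of the 22 GST and MGST points lie left of 0 (14 with plain library sizes).

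More estimates were below 0 than above it. They were lower in low cys for 25 of 37 members (67.6%, against 48.8% of all genes tested), comprising 17 of 22 GST and MGST genes, 5 of 10 UGT genes and 3 of 5 SULT genes. This count depended on single libraries. It was 21 of 37 (56.8%) without SI9 or without X23SI4, against 49.4% and 48.1% of all genes tested. Without X17SI4 it was 30 of 37 (81.1%), against 49.2%. The median log2 fold change was -0.23 for GST and MGST genes, 0.08 for UGT genes, -0.0042 for SULT genes and -0.15 for all 37, against 0.01 for all genes tested. When plain library sizes replaced the TMM normalization, the median of all genes rose to 0.15 and 19 of 37 members (51.4%, against 28.2% of all genes tested) were lower, comprising 14 GST and MGST, 3 UGT and 2 SULT genes. With that scaling 2 of 37 members passed an unadjusted p under 0.05 in edgeR, Ugt2b35 and Sult1c2, both higher, against 6.97% of all genes tested. The precision was limited, with a median half-width of the 95% interval of 0.62 on the log2 scale and 21 of 37 intervals within 1 log2 unit of 0 on both sides.

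Ugt2b35 (chr5:87000860-87011674, plus strand) is a low member of the UGT family, above 33.3% of all genes tested in CPM per kb. Its CPM was 2.77, 3.59, 2.31 and 3.20 in the normal cys libraries X17SI4, X32SI4, SI9 and X1SI4 and 6.08, 4.75 and 3.80 in the low cys libraries X23SI4, X26SI4 and X10SI4, from 44 to 149 counts per library. All 3 low cys values lay above all 4 normal cys values. The mean was 2.97 ± 0.55 CPM in normal cys and 4.88 ± 1.15 CPM in low cys (SD), a log2 fold change of 0.72 (SE 0.259, edgeR unadjusted p = 0.0212, adjusted p = 0.794), and the exact permutation test (two-sided, 35 permutations) gave p = 0.0286, the smallest this design allows.

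Sult2b1 (chr7:45729983-45759612, minus strand) had 188.5, 256.4, 249.7 and 220.0 CPM in normal cys and 155.8, 196.5 and 182.6 CPM in low cys, in the same order of libraries. The normal cys library X17SI4 lay below the low cys library X26SI4, so the groups overlapped. The means were 228.7 ± 31.1 and 178.3 ± 20.7 CPM, with a log2 fold change of -0.36 (SE 0.152, edgeR unadjusted p = 0.0423, adjusted p = 0.794; exact permutation p = 0.0857). Sult1c2 had 0.784, 1.45, 0.946 and 1.58 CPM in normal cys and 1.96, 2.31 and 1.68 CPM in low cys, from 15 to 48 counts. The groups did not overlap, but the gene did not pass an unadjusted p under 0.05 (log2 fold change 0.73, SE 0.346, edgeR p = 0.0639; exact permutation p = 0.0571).

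**Figure D3:**
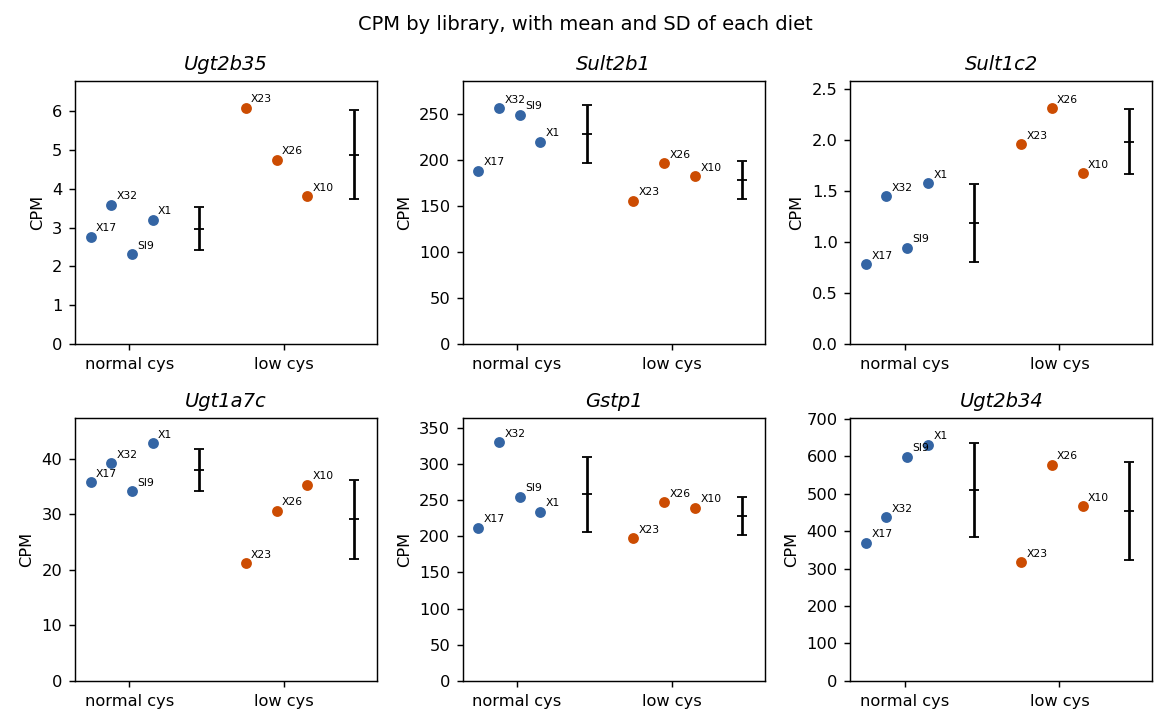
CPM of 6 members in each library (labels without the ending SI4), with normal cys in blue and low cys in orange and bars for the mean ± SD of each diet. Low cys lay above normal cys for Ugt2b35 and Sult1c2 in all libraries, whereas the diets overlapped for Sult2b1, Ugt1a7c, Gstp1 and Ugt2b34.

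The other abundant sulfotransferases showed values that overlapped between diets. Sult1b1 (chr5:87513339-87538195, minus strand) ranged from 240.5 to 381.8 CPM in normal cys and from 239.4 to 312.1 CPM in low cys (312.0 ± 61.8 against 280.9 ± 37.4, log2 fold change -0.15). Its neighbour Sult1d1 ranged from 138.5 to 284.4 CPM in normal cys and from 172.8 to 225.0 CPM in low cys, with means of 204.6 ± 70.0 and 204.1 ± 27.6 and a 95% interval of the log2 fold change from -0.58 to 0.57. Sult1a1, from 12 to 33 counts per library, had 0.881 CPM in normal cys and 1.10 CPM in low cys on average.

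Within the UGT family the most counted gene differed more between libraries than between diets. Ugt2b34 had 369.3, 436.8, 598.8 and 630.0 CPM in normal cys and 316.9, 577.3 and 466.5 CPM in low cys, and both diets thus held high and low libraries. The means were 508.7 ± 125.7 and 453.6 ± 130.7 CPM, with a log2 fold change of -0.17 (SE 0.252, edgeR unadjusted p = 0.527). Ugt1a7c and Ugt1a1 had lower estimates, with 38.0 ± 3.83 against 29.1 ± 7.19 CPM for Ugt1a7c (log2 fold change -0.39, edgeR unadjusted p = 0.0586) and 43.1 ± 7.82 against 36.3 ± 6.52 CPM for Ugt1a1 (-0.25). Ugt1a7c was at 21.3 CPM in X23SI4, its lowest value, and at 30.7 and 35.4 CPM in the other low cys libraries, against 34.2 to 42.9 CPM in normal cys. Ugt2b5, with 15.2 against 18.0 CPM, and Ugt2b38, with 2.54 against 3.24 CPM, had higher estimates (0.24 and 0.34) that were below 0 without X26SI4, and these 2 genes share sequence with other genes. For all 6 tested Ugt2b genes, 4 estimates were above 0 and 2 below.

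Among the cytosolic GST genes the abundant pi-class members differed little. Gstp1 had 211.7, 330.2, 254.9 and 234.0 CPM in normal cys and 197.2, 246.9 and 239.4 CPM in low cys, and Gstp2 had 144.3, 226.1, 186.7 and 156.6 against 129.6, 160.1 and 163.5 CPM. Both were highest in X32SI4 and lowest in X23SI4, and their log2 fold changes were -0.18 and -0.24. Gsto1 averaged 323.3 ± 59.4 CPM in normal cys and 270.7 ± 16.0 CPM in low cys (-0.26). Gstz1, the maleylacetoacetate isomerase of tyrosine breakdown, averaged 29.6 ± 4.82 and 31.4 ± 1.46 CPM (0.08). The membrane-bound enzymes were as close, with 203.4 ± 39.9 against 219.4 ± 7.38 CPM for Mgst1 (0.11), 199.3 against 171.4 CPM for Mgst2 (-0.22), which also makes leukotriene C4, and 202.3 ± 38.2 against 175.3 ± 25.3 CPM for Mgst3 (-0.21).

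The lowest estimates of the GST family came from less abundant genes with a wide spread between libraries. Gsta1 had 24.51, 67.1, 41.9 and 82.2 CPM in normal cys and 24.45, 41.6 and 38.9 CPM in low cys (log2 fold change -0.63), and Gsta2 had 5.17, 14.0, 8.46 and 16.8 against 4.86, 7.75 and 8.19 CPM (-0.69, SE 0.392, edgeR unadjusted p = 0.112). Both genes were low in X17SI4 and X23SI4 and high in X32SI4 and X1SI4. Gstk1, the kappa-class enzyme of mitochondria and peroxisomes, had 8.99, 15.7, 28.4 and 23.8 CPM in normal cys and 9.18, 13.1 and 15.5 CPM in low cys (-0.61). Gstm3, a mu-class enzyme, had the most negative estimate of all members, -0.87 (SE 0.579), with 13.0, 22.9, 36.0 and 25.5 CPM in normal cys and 3.02, 18.9 and 18.3 CPM in low cys. Its value in X23SI4, from 74 counts, was the lowest of the 7 libraries, and highest and lowest library differed 11.9-fold. Gstm6, also of the mu class, had 1.78, 3.72, 5.68 and 5.45 CPM in normal cys and 1.88, 2.63 and 3.48 CPM in low cys (-0.65). None of these genes passed an unadjusted p under 0.05.

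Spread between libraries of 1 diet was itself a feature of several members. In normal cys the highest library exceeded the lowest more than 2-fold for 17 of 37 members and more than 3-fold for 9. Ugt2a3 had the widest ratio of highest to lowest library within normal cys, whereas Gstm3 had it within low cys and over all libraries. Ugt2a3 stood at 10.1, 23.4, 33.0 and 6.21 CPM in normal cys and 5.10, 18.4 and 30.3 CPM in low cys. The highest and lowest normal cys libraries differed 5.32-fold for this gene, and the diets had nearly the same mean (18.2 and 17.9 CPM). Gstm7 and Ugt1a6a followed with 5.19-fold and 5.13-fold, whereas Gstt3, a theta-class enzyme, differed 1.13-fold and Ugt1a7c 1.25-fold. The coefficient of variation in normal cys exceeded 40% for 10 members (27.0%, against 20.3% of all genes tested), and its median was 25.4% against 21.6%.

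**Figure D4:**
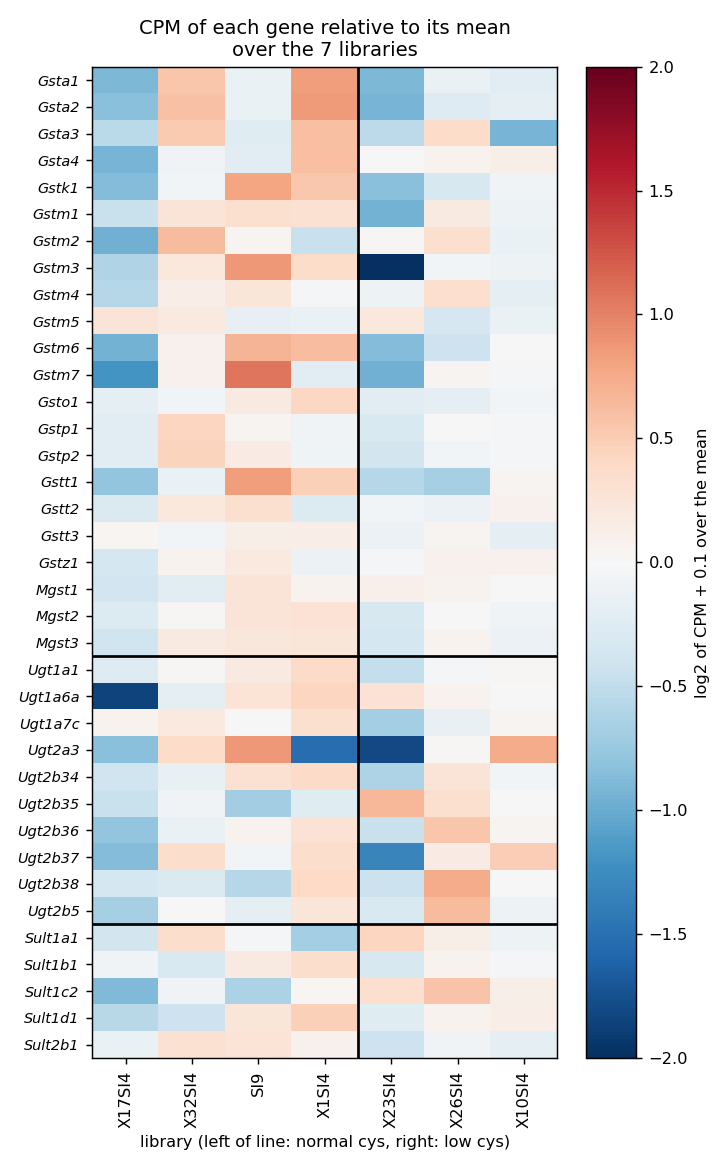
Deviation of each tested gene in each library from its own mean over the 7 libraries, as log2 of CPM + 0.1, with blue for below and red for above the mean, a vertical line between the diets and horizontal lines between GST, UGT and SULT genes. X17SI4 was the lowest library for 16 of the 37 genes and X23SI4 for 15, while X1SI4 was the highest for 14 and SI9 for 10.

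The libraries with low values were 1 of each diet. X17SI4 (normal cys) was the lowest library for 16 of 37 members and X23SI4 (low cys) for 15, whereas X1SI4 was the highest for 14 and SI9 for 10, both normal cys. Without X17SI4, 8 members passed an unadjusted p under 0.05 in edgeR, Ugt2b35 higher and Gstt1, Sult2b1, Mgst3, Gstk1, Gsta2, Gstm6 and Gsta1 lower, against 11.9% of all genes tested. The diets then did not overlap for 13 of 37 members, 11 of them lower in low cys, against 18% of all genes tested. Without SI9, or without X23SI4, 0 members passed an unadjusted p under 0.05 in edgeR, against 2.77% and 1.64% of all genes tested.

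Cell type markers differed alongside these libraries and the diet. The summed CPM of 12 mature enterocyte markers was 45440 to 67850 in normal cys and 25070 to 44890 in low cys. These ranges, with TMM scaling, did not overlap, but the gap between X17SI4 (45440) and X10SI4 (44890) was narrow. Their TMM factors were 0.9715 and 1.043, so with plain library sizes X10SI4 would lie above X17SI4 and the diets would overlap. X23SI4 was the lowest of all and X17SI4 the lowest of normal cys. All 12 estimates were lower in low cys (2 at an unadjusted p under 0.05 in edgeR, Apoa1 and Krt20). Summed Paneth cell markers ranged from 833.4 to 5589 CPM in normal cys, with X17SI4 the highest and X1SI4 the lowest, and from 3434 to 6212 CPM in low cys. Stem and proliferating cell markers ranged from 130.7 to 355.9 CPM, again with X17SI4 the highest and X1SI4 the lowest, and from 220.0 to 396.6 CPM in low cys, with all 10 estimates higher. Fibroblast markers (24.3 to 31.2 against 37.6 to 43.7 CPM), endothelial markers (6.83 to 10.6 against 11.1 to 14.8 CPM) and B and plasma cell markers (198.2 to 340.9 against 366.3 to 419.6 CPM) lay higher in low cys without overlap. Summed smooth muscle markers overlapped (180.8 to 224.3 against 169.7 to 264.4 CPM). All 7 of their estimates were higher in low cys, 2 at an unadjusted p under 0.05 in edgeR (Des and Actg2). Myh11 was at 10.75 CPM in X26SI4, against 0.612 and 3.16 CPM in the other low cys libraries and 0.478 to 2.61 CPM in normal cys. In bulk tissue, fewer enterocytes and less RNA per enterocyte cannot be told apart, and the part of cell makeup in the values of the conjugation genes was not tested.

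As family totals, the share of all counts showed no separation of the diets. All 63 members held 0.287% ± 0.0417 of counts in normal cys and 0.281% ± 0.0257 in low cys. GST and MGST genes held 0.155% ± 0.0237 and 0.150% ± 0.00633, UGT genes 0.0612% ± 0.0117 and 0.0609% ± 0.0142, and SULT genes 0.0712% ± 0.0100 and 0.0703% ± 0.00564. The ratio of low cys to normal cys was 0.969, 0.994 and 0.988 for the 3 families, and every range overlapped. These shares use plain library sizes, on which the log2 ratios were -0.046, -0.0082 and -0.018, and with the TMM scaling of the single-gene values they were -0.19, -0.15 and -0.17. The lowest GST and SULT totals were those of X17SI4, at 0.121% and 0.0597%.

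**Figure D5:**
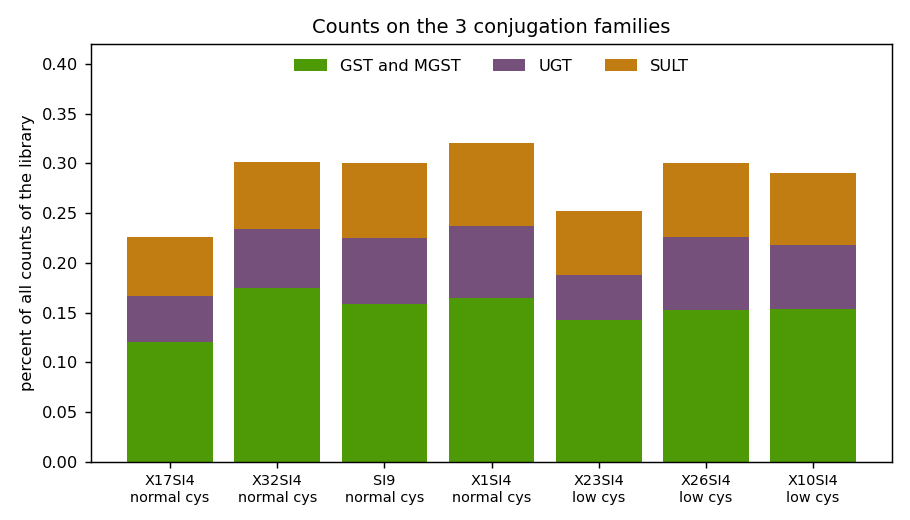
Percent of all counts of each library on GST and MGST, UGT and SULT genes, stacked from 0. X17SI4 (0.226%, normal cys) and X23SI4 (0.252%, low cys) had the lowest totals, and the other 5 libraries lay between 0.291% and 0.320%.

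The genes around the conjugation step were compared in the same way. Of 92 tested genes on 9 lists, 8 passed an unadjusted p under 0.05 in edgeR, all lower in low cys, against 5.49% of all genes tested (2.83% lower), and 0 passed after adjustment (adjusted p = 0.794 for each of the 8). Beside the tallies of lower estimates that follow, 48.8% of all genes tested had a lower estimate. On the list of glutathione supply, 7 of 8 estimates were lower (median log2 fold change -0.30), with 1 called, Ggt1, the gamma-glutamyltransferase that breaks glutathione down at the cell surface (811.1 against 581.4 CPM, -0.48). Gclc and Gclm, the subunits of the rate-limiting enzyme of glutathione synthesis, averaged 60.1 against 43.2 CPM and 107.4 against 78.6 CPM. On the list of UDP-glucuronic acid supply, 9 of 9 estimates were lower (median -0.39), with 2 called, among them Pgm1 (phosphoglucomutase, 143.2 against 89.0 CPM, -0.69). Ugdh, which makes UDP-glucuronic acid, averaged 208.5 against 158.7 CPM and was not called. On the list of sulfate and PAPS supply, 7 of 14 estimates were lower and 0 genes were called. Papss1 and Papss2, the PAPS synthases, averaged 129.4 against 133.6 CPM and 165.5 against 136.7 CPM.

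Of 17 tested regulators, 15 had a lower estimate in low cys with 0 called. Nfe2l2, which encodes NRF2, averaged 155.9 against 142.4 CPM (-0.13), the xenobiotic receptor CAR (Nr1i3) had a log2 fold change of -0.77, and the bile acid receptor FXR (Nr1h4) averaged 135.6 against 183.8 CPM (0.44). Among NRF2 targets 12 of 17 estimates were lower, with 2 called, the peroxiredoxin reductase Srxn1 (530.1 against 408.2 CPM, -0.38) and malic enzyme Me1 (32.5 against 14.9 CPM, -1.14). Among PXR and CAR targets 10 of 10 estimates were lower (median -0.62), with 1 called, the cytochrome P450 Cyp3a13 (556.9 against 379.6 CPM, -0.55), and among 3 tested AHR targets 2 were lower with 0 called. The conjugate efflux list, which also holds the uptake transporter Slco2b1, had 8 of 11 lower estimates with 0 called. On the list of deconjugation and mercapturate formation, 8 of 11 estimates were lower with 2 called, the N-acetyltransferase Nat8, which finishes mercapturic acids (37.4 against 25.1 CPM, -0.58), and its relative Nat8b (0.998 against 0.245 CPM, -2.04). Mature enterocyte markers were also lower in low cys, as described above, and their part in the values of these list genes was not tested.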

How the data were processed

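The authors trimmed the reads, removed ribosomal reads, aligned the rest to GRCm38 with STAR and counted them with featureCounts on an Ensembl annotation, and deposited raw counts per gene without normalization (total counts per library as in the report). The library kit was stranded, but the strand setting and the treatment of reads on several genes were not stated in the sources used here. Groups were taken from the sample labels. Genes were kept by filterByExpr (minimum count 10, minimum total 15) and fitted by edgeR 4.0.16 in R 4.3.3 (TMM normalization, quasi-likelihood F test, robust), with no covariate and Benjamini-Hochberg adjustment over all 14869 genes. CPM uses the TMM effective library size, and CPM per kb also the exon length of the table. For single genes an exact permutation test (two-sided) of mean CPM was added. DESeq2 1.42.0, limma-voom (limma 3.58.1), DESeq2 size factors, plain library sizes, 2 other filters and leaving out each library were alternatives. A length without shared exon bases, the members with little shared sequence and the motif TGAGTCAGC were added after seeing the data. The fits were tested on simulated data.

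Named genes are members with an unadjusted p under 0.05, without overlap between diets, among the 4 highest per kb of their family or among the 2 with the smallest p in each direction of their family, and list genes with an unadjusted p under 0.05. Other genes were named after their values were seen. The members, lists and motifs were chosen with earlier results of these data known. Printed sequences came from RefSeq (GRCm38.p6), with 54 of 63 members matched to a promoter window. Sequence sharing was searched in GENCODE transcripts (GRCm38) only. Family sums were not tested. A list gene and a sequence are not reported here.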

Additional observations from a re-analysis of the deposited data

Results flagged for a closer look

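In the normal cys group of 4 libraries, 40 sets of values (the 37 tested members and the 3 family totals) were examined for a library that stands apart by Dixon's criterion, and 2 were found, as many as chance would give. Both were low values of the library X17SI4. Mgst3 was at 145.4 CPM there, against 215.3 to 224.5 CPM in the other normal cys libraries and 149.3 to 199.9 CPM in low cys. Gstm1, a mu-class glutathione S-transferase, was at 8.26 CPM there, against 13.4 to 14.1 CPM in the other normal cys libraries and 5.80 to 12.8 CPM in low cys. The 3 low cys libraries were not examined in this way. X17SI4 was also the normal cys library with the lowest summed mature enterocyte markers and the highest summed Paneth cell markers, and the part of these in the 2 values was not tested.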

How the results depend on the processing

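No conjugation gene passed an adjusted p under 0.05 under any alternative (smallest adjusted p 0.377). The 2 members with an unadjusted p under 0.05 became 4 with limma-voom (Sult1c2 and Ugt1a7c added) and 0 to 8 when each library was left out. Members without overlap between diets numbered 2 to 13, and list genes with an unadjusted p under 0.05 numbered 2 to 21 (8 with all libraries), when each library was left out, with both highest counts reached without X17SI4. Of 286 estimates of 22 named genes under the alternatives, 272 kept their direction, and 16 genes never changed it. Sult1d1 turned to 0.15 with plain library sizes, 0.0076 with at least 10 counts in every library, 0.056 with limma-voom, and ranged from -0.15 to 0.20 when each library was left out, above 0 without SI9 (0.09), X1SI4 or X23SI4 (0.11). Ugt2a3 turned to 0.10 with plain library sizes and ranged from -0.64 to 0.43 when each library was left out, above 0 without X32SI4 (0.13), SI9 (0.42) or X23SI4. Over the same 7 fits Gstz1 ranged from -0.0095 (without X17SI4) to 0.17, Ugt2b34 from -0.38 to 0.047 (without X23SI4), Ugt2b38 from -0.058 (without X26SI4) to 0.59, and Ugt2b5 was at -0.10 without X26SI4 and at most 0.43. The cause of these turns was not tested. Without length scaling Mgst1 and Ugt2a3 entered the 4 highest of their families in place of Gstp2 and Ugt2b5. The precision is limited by 3 and 4 libraries, and for Ugt2b35, Sult1c2 and Sult1a1 also by few counts. No paired analysis was made, because per the methods of the study each mouse received either diet, and no pairing of mice was described.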
